A study of Mus musculus with 6 samples.

Results

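The 31 genes described here are published or conserved predicted targets of the microRNAs miR-15 and miR-16 that act in signalling and growth, outside the G1 cyclins and the BCL2 and MYB families. They were taken by name, and each was represented by its probe set with exactly 1 gene symbol and the highest mean over the 6 arrays. All 31 were found among the 19938 genes measured. RNA came from natural killer (NK) cells, innate lymphocytes with direct cytotoxicity, sorted from spleens of C57Bl/6 mice aged 8 to 12 weeks as YFP+, CD27+, NK1.1+ and CD3-. CD27 is carried by the less mature stages of NK cells. The sort was done directly after the spleen was harvested, and each sample of total RNA was run on its own Affymetrix mouse gene array. Cells with the genotype label 15a/16-1FKO, here the knockout, filled 3 arrays, and cells labelled Ctrl, the control, filled the other 3. Cells of both genotypes were gated as YFP+. The driver of the deletion, the number of animals behind an array and any pooling are not given in the sources used here. The comparison asked how RNA of these targets differs in CD27+ NK cells that lack the miR-15a/16-1 cluster.

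MicroRNAs are short RNAs that guide Argonaute proteins to partly complementary sites, mostly in the 3' untranslated regions of messenger RNAs, and thereby lower translation or shorten the life of the message. Pairing rests mainly on the seed near the 5' end of the microRNA, so that family members with a common seed share many targets. The miR-15/16 family is known for restraining cell division and survival in lymphocytes, and its loss is frequent in chronic lymphocytic leukaemia. Arrays of messenger RNA record a loss of repression only as far as it acts on RNA abundance, and they do not see protein.

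The mature sequences are shown because they define which microRNAs were removed and which with the same seed are encoded elsewhere. They are RefSeq sequences on GRCm38.p6, written 5' to 3', with the seed, bases 2 to 8, in capitals. The deleted pair lies on the minus strand of chromosome 14, with miR-15a-5p at chr14:61632075-61632096 and miR-16-5p of Mir16-1 at chr14:61631936-61631957.
miR-15a-5p: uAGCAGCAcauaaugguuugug
miR-16-5p: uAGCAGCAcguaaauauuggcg
miR-15b-5p: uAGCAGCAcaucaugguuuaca
miR-195a-5p: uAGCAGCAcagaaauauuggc
miR-497a-5p: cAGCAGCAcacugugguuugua
miR-322-5p: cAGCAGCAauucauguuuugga
The same miR-16-5p is also encoded by Mir16-2, beside Mir15b on chromosome 3, and miR-195a-5p and miR-497a-5p lie together on chromosome 11. Aligned from the 5' end without gaps, miR-15b-5p matched miR-15a-5p at 18 of 22 bases and miR-16-5p matched it at 16 of 22. Of 1679 mature mouse microRNA names in the table, 10 carry this seed. Its complement in a target RNA reads UGCUGCU. The untranslated regions of the target genes were not searched for it.

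The array values are log2 expression values as deposited, on which 1 unit is a factor of 2. All differences are knockout minus control, and they were tested gene by gene with limma, with Benjamini-Hochberg adjusted p-values over all 19938 genes and a threshold of 0.05. Because the values carry no detection call, a mean level of 4.13, under which 95% of 1015 olfactory receptor genes lay, is used as a description of background. NK markers were high in every array, with a mean over 10 genes between 9.79 and 10.1 in knockout and between 9.87 and 9.91 in control arrays. Means over the B cell, T cell, myeloid, neutrophil, erythroid and platelet, and stromal marker lists lay between 3.40 and 5.20 in every array, but single markers were well above background. Of 9 T cell markers 4 were above it: Cd28 at 8.43 in knockout and 8.00 in control (limma difference 0.43, SE 0.14, unadjusted p = 0.0117, adjusted p = 0.999, no overlap), and the CD3 genes Cd3d, Cd3g and Cd3e with means over the 6 arrays of 7.33, 6.84 and 6.34. Above it were also 3 of 7 B cell, 3 of 10 myeloid, 5 of 8 neutrophil, 2 of 5 erythroid and platelet and 4 of 12 stromal markers, among them Itgax, which NK cells also express, with a mean of 9.17 and S100a8, a neutrophil gene, with a mean of 7.45. S100a8 differed by 0.77 (SE 0.32, limma unadjusted p = 0.0407, adjusted p = 0.999). The lists of Cd28 and S100a8 did not move as a whole. Of 9 T cell markers 5 had a difference above 0 and 4 below 0 (median 0.12). Of 8 neutrophil markers 5 were above 0 and 3 below 0 (median 0.05). The part of other cells in the values of the targets was not tested. Per the design text, arrays within a genotype are technical replicates, in which case the p-values would cover array-to-array spread only. Transcripts that depend on sex nevertheless differed within a genotype. Xist was at 7.56, 8.58 and 8.84 in knockout arrays 1 to 3 and at 9.65, 3.89 and 8.86 in control arrays 1 to 3, and the mean of 3 Y-linked genes was at 6.90, 5.47 and 4.80 and at 2.93, 6.75 and 5.21, respectively. Among the control arrays, arrays 1 and 2 thus stood at opposite ends of both measures. These 2 arrays therefore did not hold the same mix of RNA from the 2 sexes. How far the spread within a genotype covers differences between animals is not known. The highest Y-linked mean of the 6 arrays, 6.90, was that of knockout array 1. With a covariate for these transcripts, and without any 1 array, 0 of the 31 targets passed the threshold by limma.

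The deleted microRNA was low in the knockout. The Mir15a probe set read 4.37, 3.53 and 3.43 in knockout arrays 1 to 3 and 7.14, 6.02 and 6.69 in control arrays 1 to 3. Every knockout array lay below every control array, and the level was 7.18-fold higher in control (limma log2 difference -2.84, SE 0.31, adjusted p = 0.0296). The call ended without any of 4 single arrays, with differences between -2.58 and -2.81, and after a second quantile normalization or with the sex covariate (limma adjusted p = 0.0646 and 0.0545). Mir16-1, the partner in the cluster, read 2.61, 2.68 and 3.00 in knockout and 3.19, 3.20 and 3.77 in control arrays, all under the olfactory receptor level. Its groups did not overlap either, and its difference of -0.63 (SE 0.19) did not pass (limma adjusted p = 0.999).

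None of the 4 other precursors with this seed given here passed. No value is given for Mir322, which encodes miR-322-5p, or for precursors of the remaining names with this seed. Mir15b and Mir16-2 differed by -0.29 (SE 0.22) and -0.11 (SE 0.15), and both means lay under the background level. Mir195a differed by -0.20 (95% interval -0.60 to 0.19) and Mir497, whose mature form is miR-497a-5p, by -0.40 (95% interval -0.85 to 0.06). The arrays of the genotypes overlapped for all 4 of these precursors. A precursor probe set does not measure the mature microRNA, so these values say nothing of how much mature miR-16-5p the knockout cells still held.

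**Figure D1:**
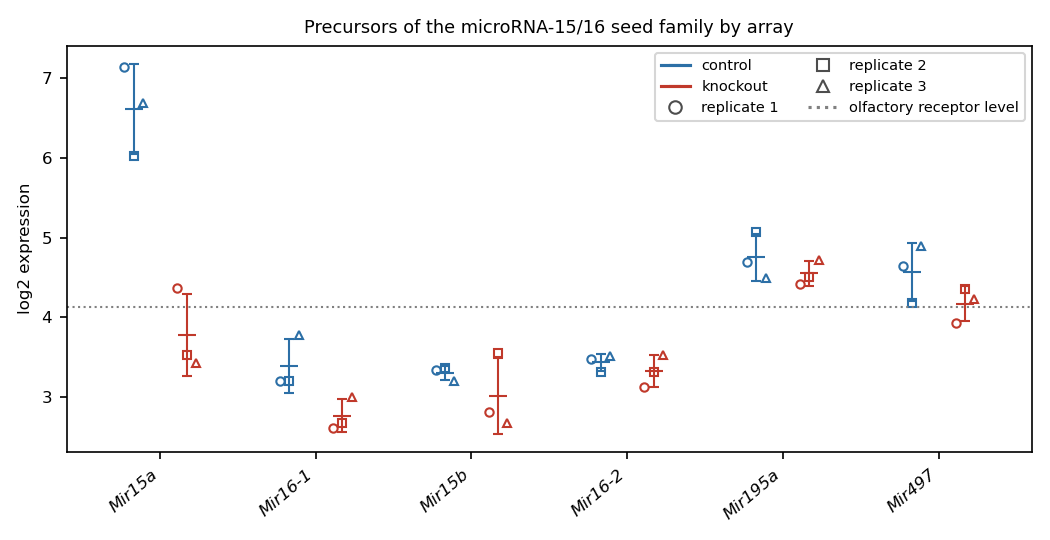
Log2 expression (y axis) of 6 precursors that carry the AGCAGCA seed, by array: control in blue, knockout in red, symbols for replicates 1 to 3, horizontal marks and bars for the mean and SD of 3 arrays, and a dotted line at the olfactory receptor level of 4.13. Mir15a separates the genotypes (mean 6.62 against 3.77), Mir16-1 does so under the dotted line, and the other 4 overlap.

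None of the 31 targets differed past the threshold. By limma 0 rose and 0 fell, where 0.015% of all genes rose and 0.00502% fell, and 0 had an unadjusted p under 0.05, where 3.47% of all genes had one. The smallest unadjusted p was 0.108 and every adjusted p was 0.999. Of the 31, 17 had a difference above 0 and 14 below 0, with a median of 0.01, beside 47.9% above 0 and a median of -0.01 over all genes. The differences ran from -0.19 to 0.28, and none exceeded 0.5 in size, a size that 1.63% of all genes exceeded. Knockout and control arrays were fully separated for 1 target, Fgf7, where 8.33% of all genes were so separated. With 3 arrays against 3, an exact permutation test of a single gene could not have gone below 0.1.

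The intervals bound how large a difference in RNA between these arrays could have gone unseen. Like the p-values, they rest on the spread between these arrays. The animals behind each array are not known, so the intervals cannot be taken as bounds across animals. All 31 of the 95% intervals lay within -1 and 1 on the log2 scale, that is, within a doubling or halving. The highest upper bound was 0.64, for Ywhah, a factor of 1.56, and the lowest lower bound was -0.53, for Cpeb2, a factor of 0.693. For 26 of the 31 the interval also lay within a factor of 1.5 either way, and the exceptions were Rictor, Ywhah, Wee1, Plag1 and Arl2, all at the upper end. These intervals hold gene by gene and not jointly. For the 4 targets whose mean lay under the olfactory receptor level (Fgf2, Fgf7, Wnt3a and Plag1) they bound little, since differences of dim probe sets are compressed in values of this kind.

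**Figure D2:**
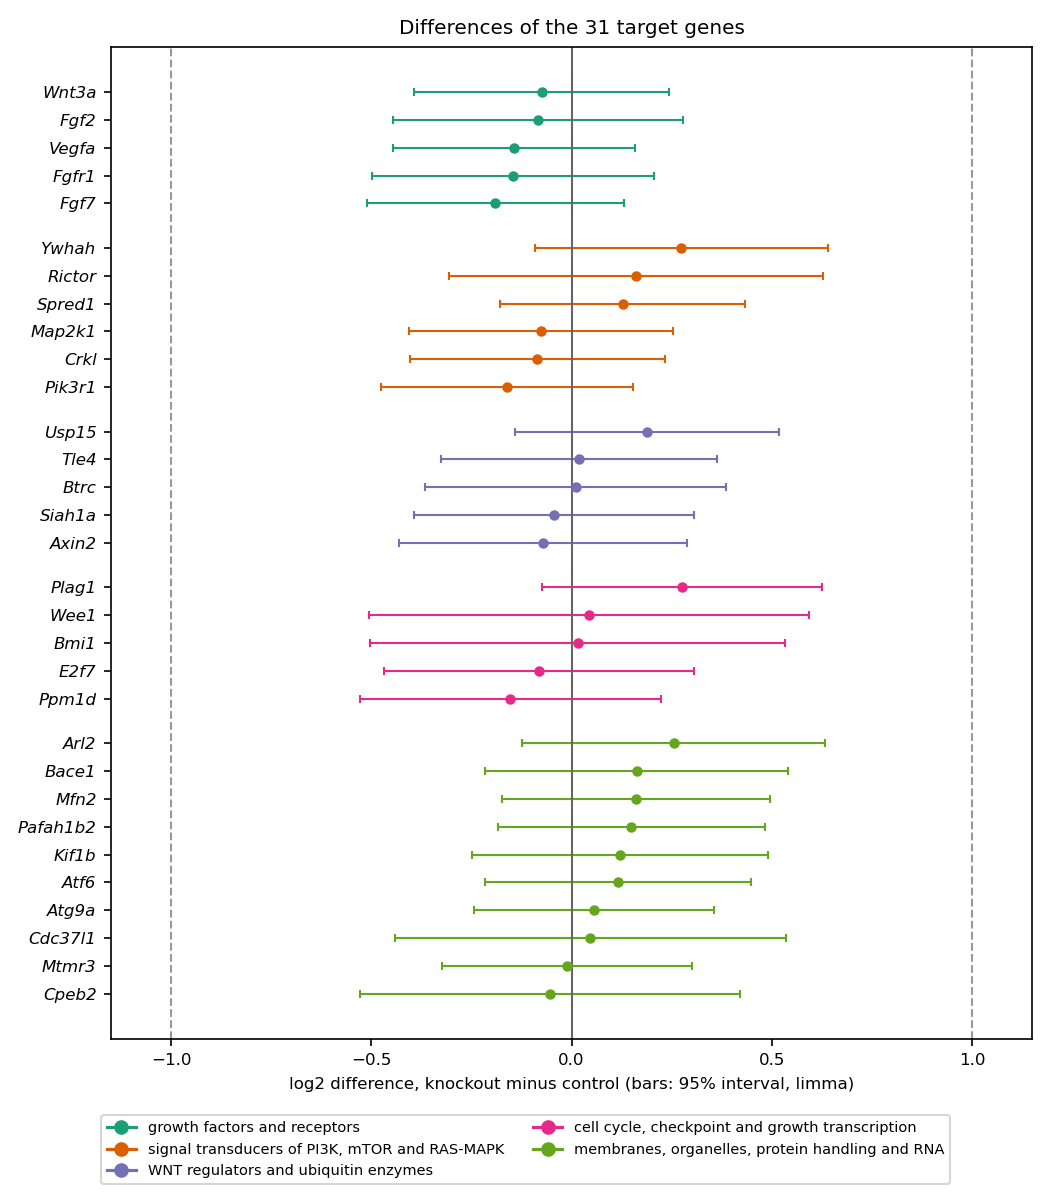
Log2 difference, knockout minus control (x axis), of each of the 31 targets (y axis, grouped by role in colour), with its 95% interval from limma and dashed lines at -1 and 1. Every interval crosses 0, and all lie between -0.53 and 0.64.

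**Figure D3:**
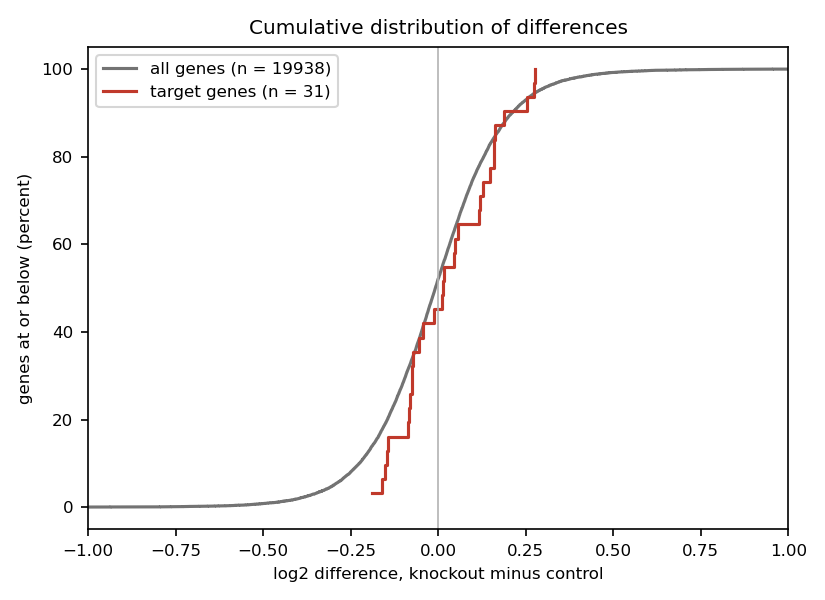
Cumulative percentage of genes (y axis) at or below a log2 difference (x axis), for the 31 targets in red and all 19938 genes in grey, drawn between -1 and 1. The medians are 0.01 and -0.01, and the targets end at -0.19 and 0.28 while the grey curve goes on to both sides.

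Among the growth factors and their receptor, all 5 differences were below 0 and none passed, with 3 of the 5 under the olfactory receptor level. Over all genes at or below that level, 55.8% of differences were below 0. Fgf7, the fibroblast growth factor made by mesenchyme for epithelium, read 2.82, 2.87 and 2.54 in knockout and 2.91, 2.90 and 3.00 in control arrays. The groups did not overlap, though knockout array 2 came close to the lowest control array, and all values were under the olfactory receptor level. The difference was -0.19 (SE 0.14, limma unadjusted p = 0.215).

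Vegfa, the main growth factor of endothelium, was above background. It read 5.41, 5.45 and 5.66 in knockout and 5.69, 5.63 and 5.63 in control arrays. Knockout array 3 lay within the control range and the other 2 below it, with a difference of -0.14 (95% interval -0.45 to 0.16). Fgfr1, a receptor tyrosine kinase for fibroblast growth factors, lay close to background, at 4.11 ± 0.16 in knockout and 4.25 ± 0.20 in control arrays (mean ± SD, n = 3 each). Its difference was -0.15 (95% interval -0.50 to 0.21). Fgf2, basic fibroblast growth factor, and Wnt3a, a ligand of the canonical WNT pathway, differed by -0.08 (SE 0.16) and -0.08 (SE 0.14), both under the olfactory receptor level.

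Markers of stroma and endothelium, cells that make and receive such factors, were also mostly below 0. Of 12 markers 10 had a difference below 0 and 4 were above background. The 2 above 0, Col1a2 with 0.06 and Col3a1 with 0.05, were among those 4, so every marker under background was below 0. Their mean lay between 3.40 and 3.73 in knockout and between 3.59 and 3.87 in control arrays. Their part in the differences of the growth factors was not tested. In bulk samples fewer cells of a type and less RNA per cell cannot be told apart.

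The 6 transducers of PI3K, mTOR and RAS-MAPK signals carry messages from such receptors, and 3 had differences above 0 and 3 below 0, all above background. Pik3r1, the p85-alpha regulatory subunit of PI3-kinase, read 8.92, 8.66 and 8.76 in knockout and 8.99, 8.82 and 9.02 in control arrays. Its difference was below 0 in all 3 pairs of same-numbered arrays, yet knockout array 1 lay inside the control range. The difference was -0.16 (95% interval -0.48 to 0.15). The labels do not pair the arrays, so agreement by number is a description only and was not tested. All 3 pairs were above 0 for 5 of the 31 targets, beside 11.02% of all genes. They were all below 0 for 2 of the 31, beside 12.66% of all genes.

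Ywhah, the 14-3-3 eta protein that binds phosphorylated partners, had the largest difference of the transducers. It read 9.03, 8.98 and 8.61 in knockout and 8.43, 8.76 and 8.61 in control arrays. Knockout arrays 1 and 2 lay above every control array and knockout array 3 did not. The difference was 0.27 (SE 0.16, limma unadjusted p = 0.126). A second probe set with the symbol Ywhah read 8.04, 8.08 and 7.96 in knockout and 7.59, 7.86 and 7.85 in control arrays, without overlap. It gave a difference of 0.26 (SE 0.14, limma unadjusted p = 0.0912 over all probe sets with 1 symbol). Both probe sets carry the same transcript accessions in the annotation, so they are no independent measurements. Ywhah was the only target with more than 1 probe set.

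Rictor, the scaffold of mTOR complex 2, read 7.03, 7.13 and 6.32 in knockout and 6.68, 6.66 and 6.66 in control arrays. Knockout arrays 1 and 2 lay above the control arrays and knockout array 3 below them, while the control arrays nearly coincided (SD 0.01). The difference was 0.16 (95% interval -0.31 to 0.63). Without knockout replicate 3 it was 0.42, and Rictor and Ywhah then had an unadjusted p under 0.05 (limma adjusted p of at least 0.991 for every target in that fit). In the same fit 4.75% of all genes had a limma unadjusted p under 0.05.

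The remaining transducers differed little. Crkl, an SH2 and SH3 domain adaptor, read 7.87, 7.55 and 7.79 in knockout and 7.83, 7.74 and 7.89 in control arrays, a difference of -0.09 (SE 0.14). Map2k1, the kinase MEK1 that activates ERK, differed by -0.08 (95% interval -0.40 to 0.25). Spred1, an inhibitor of RAS-MAPK signalling, differed by 0.13 (95% interval -0.18 to 0.43), with knockout arrays 2 and 3 above all control arrays and knockout array 1 below them.

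Among WNT regulators and ubiquitin enzymes, 3 of 5 differences were above 0 and 2 below, and all 5 genes were above background. Usp15, a deubiquitinating enzyme, had the largest. It read 7.17, 6.87 and 7.07 in knockout and 6.94, 6.69 and 6.92 in control arrays. Each knockout array lay above the control array of the same number, but knockout array 2 lay below 2 control arrays. The difference was 0.19 (95% interval -0.14 to 0.52).

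Axin2, a scaffold of the beta-catenin destruction complex and itself induced by WNT signals, differed by -0.07 (95% interval -0.43 to 0.29). Btrc, the F-box protein that recognises phosphorylated beta-catenin for degradation, differed by 0.01 (95% interval -0.37 to 0.39). Tle4, a Groucho-type corepressor, differed by 0.02 (95% interval -0.33 to 0.36). Siah1a, a RING ubiquitin ligase, differed by -0.04 (95% interval -0.39 to 0.31), and its close relative Siah1b may share probes with it. In each of these 4 genes the arrays of the genotypes overlapped.

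Of the 5 cell cycle and growth regulators 3 had a difference above 0 and 2 below 0, and 4 were above background. The largest SE of the 31 targets were those of Wee1 and Bmi1. Wee1, the kinase that holds CDK1 inactive before mitosis, read 5.47, 5.07 and 4.46 in knockout and 4.69, 5.14 and 5.04 in control arrays. The highest and the lowest of the 6 values were both knockout arrays, and the difference was 0.04 (SE 0.24). Bmi1, a subunit of Polycomb repressive complex 1, read 6.91, 6.67 and 7.20 in knockout and 6.84, 6.50 and 7.39 in control arrays. In both genotypes array 3 was highest and array 2 lowest, and the difference was 0.01 (SE 0.23).

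Plag1, a zinc finger transcription factor, had the largest difference of all 31, on values that all lay under the olfactory receptor level. It read 3.46, 3.09 and 3.14 in knockout and 2.84, 3.12 and 2.90 in control arrays, so that knockout array 2 lay within the control range. The difference was 0.28 (SE 0.16, limma unadjusted p = 0.108). Ppm1d, the p53-induced phosphatase WIP1, differed by -0.15 (95% interval -0.53 to 0.22). E2f7, an atypical E2F that represses transcription, differed by -0.08 (95% interval -0.47 to 0.31). For both, knockout array 3 was the lowest of the 6, at 5.96 and 4.57.

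Genes of membranes, organelles, protein handling and RNA formed the largest group, with all 10 above background. Of its 10 differences 8 were above 0, with a median of 0.12 and none past the threshold. Among all genes above background 51.0% of differences were above 0. The role groups were chosen with earlier results of these data known, and the count of 8 was not tested. Arl2, a small GTPase of tubulin folding and mitochondria, read 5.71, 5.92 and 5.57 in knockout and 5.36, 5.77 and 5.31 in control arrays. Each knockout array lay above the control array of the same number, but control array 2 lay above knockout arrays 1 and 3. The difference was 0.25 (SE 0.17, limma unadjusted p = 0.164). Without control replicate 2 it was 0.40, with an unadjusted p of 0.0436 (limma adjusted p = 0.999). In that fit 4.02% of all genes had a limma unadjusted p under 0.05.

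Mfn2, which fuses outer mitochondrial membranes, was above its same-numbered control in 3 of 3 pairs and differed by 0.16 (95% interval -0.17 to 0.50). Bace1, the beta-secretase, differed by 0.16 (95% interval -0.22 to 0.54), with control array 3 the lowest of the 6 at 5.12 and both knockout array 2 and control array 1 at 5.70. Pafah1b2, a catalytic subunit of a platelet-activating factor acetylhydrolase, read 7.30, 7.21 and 7.24 in knockout and 6.86, 7.27 and 7.17 in control arrays. Control array 1 alone lay well apart there, and the difference was 0.15 (SE 0.15). Kif1b, a kinesin motor of axonal and organelle transport, differed by 0.12 (95% interval -0.25 to 0.49).

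Atf6, the membrane-bound sensor of unfolded protein in the endoplasmic reticulum, differed by 0.12 (95% interval -0.22 to 0.45). Atg9a, the membrane protein that supplies lipid to forming autophagosomes, was among the tightest, with a mean of 6.08 ± 0.11 in knockout and of 6.03 ± 0.06 in control (SD, n = 3 arrays each) and a difference of 0.06 (SE 0.13). Mtmr3, a phosphatase of phosphatidylinositol 3-phosphate, read 7.46, 7.27 and 7.53 in knockout and 7.54, 7.35 and 7.41 in control arrays, a difference of -0.01 (SE 0.14).

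Cdc37l1 and Cpeb2 varied more within a genotype than between genotypes. Cdc37l1, related to the HSP90 cochaperone CDC37, read 6.89, 6.11 and 6.60 in knockout and 6.18, 6.64 and 6.65 in control arrays, a difference of 0.05 (SE 0.22). Cpeb2, which binds cytoplasmic polyadenylation elements and regulates translation, read 6.34, 6.46 and 5.81 in knockout and 6.56, 5.96 and 6.25 in control arrays, a difference of -0.05 (SE 0.21). The lowest knockout array was a different one in each gene.

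**Figure D4:**
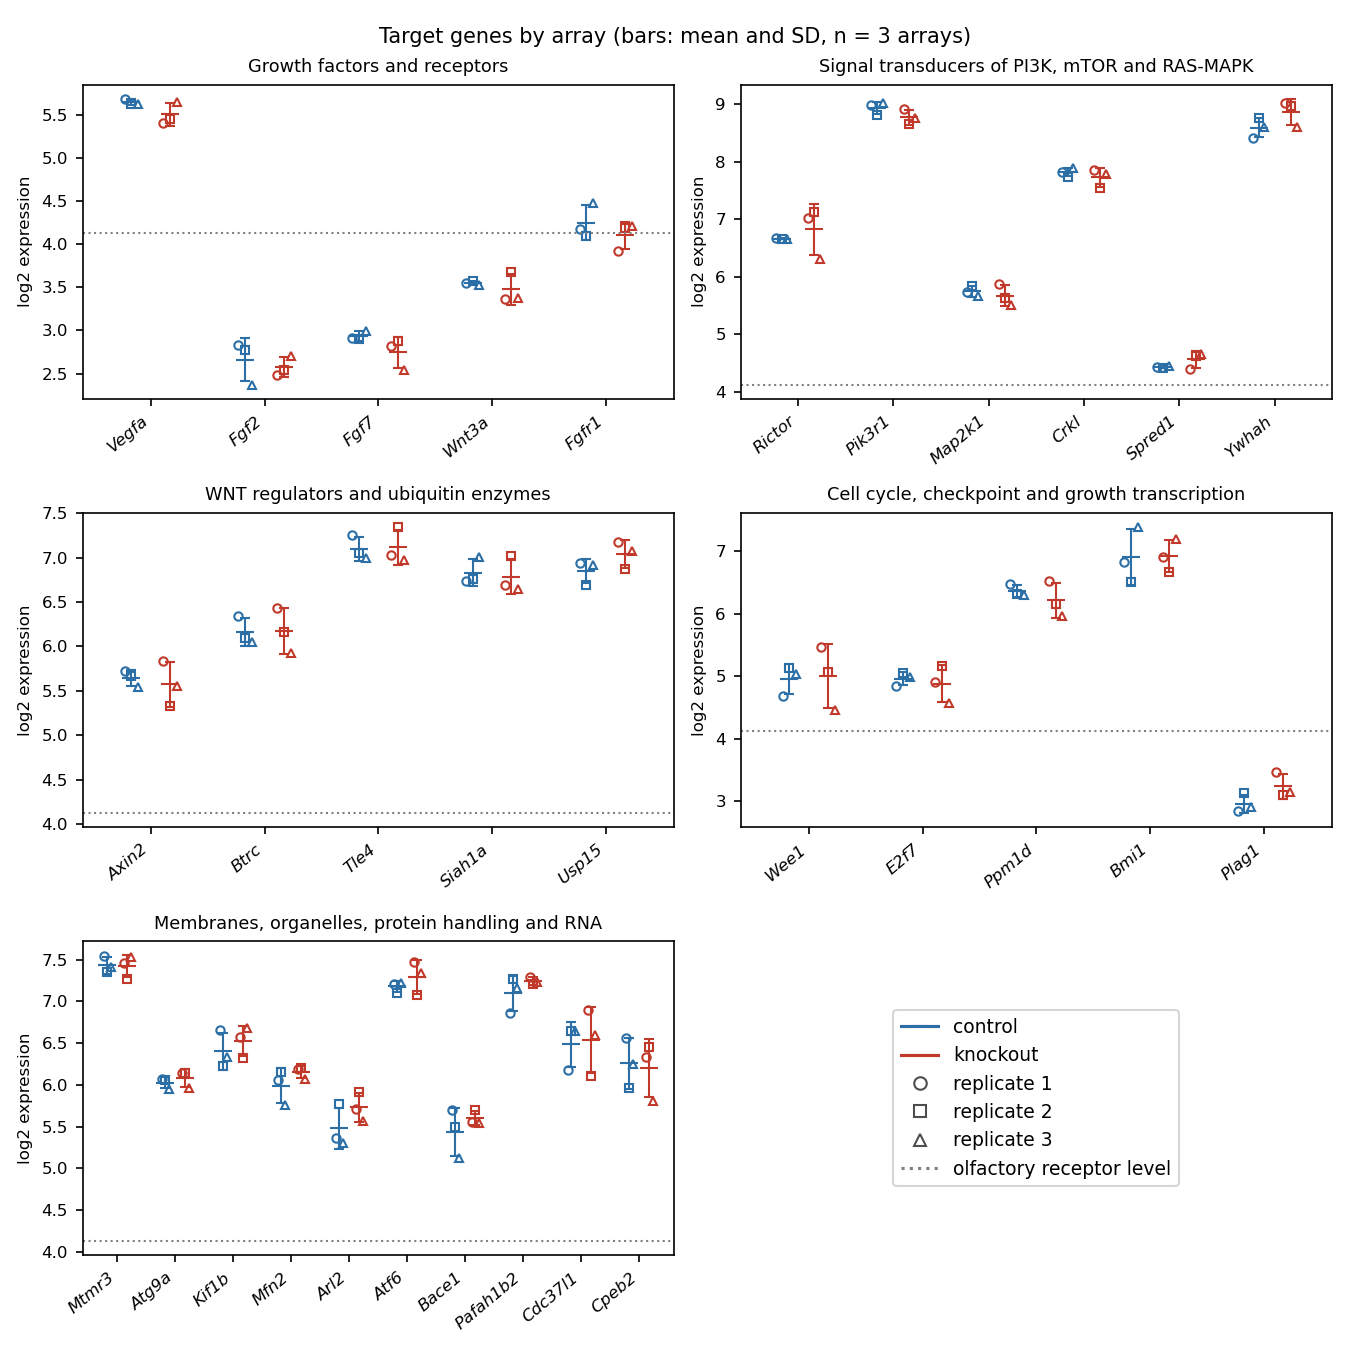
Log2 expression (y axes, scaled per panel) of the 31 targets in 5 role groups, by array: control in blue, knockout in red, symbols for replicates 1 to 3, marks and bars for the mean and SD of 3 arrays, and a dotted line at the olfactory receptor level of 4.13. The genotypes overlap in every gene except Fgf7, and Fgf2, Fgf7, Wnt3a and Plag1 lie under the dotted line.

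Across arrays, the targets varied more among knockout than among control arrays. The SD over 3 arrays was larger in the knockout for 23 of 31 targets (74.2%), beside 53.2% of all genes, with medians of 0.181 in knockout and 0.136 in control arrays for the targets and 0.183 and 0.174 for all genes. Knockout array 1 was the highest of the 6 arrays for 12 of 31 targets, beside 16.2% of all genes. Knockout array 3 was the lowest for 10 of 31, beside 15.6% of all genes. The mean over the 31 targets was 6.04, 5.95 and 5.87 in knockout arrays 1 to 3 and 5.94, 5.92 and 5.92 in control arrays 1 to 3. The knockout arrays thus lay on both sides of the control arrays. Targets share arrays and normalization, so these counts describe the 6 arrays and were not tested.

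**Figure D5:**
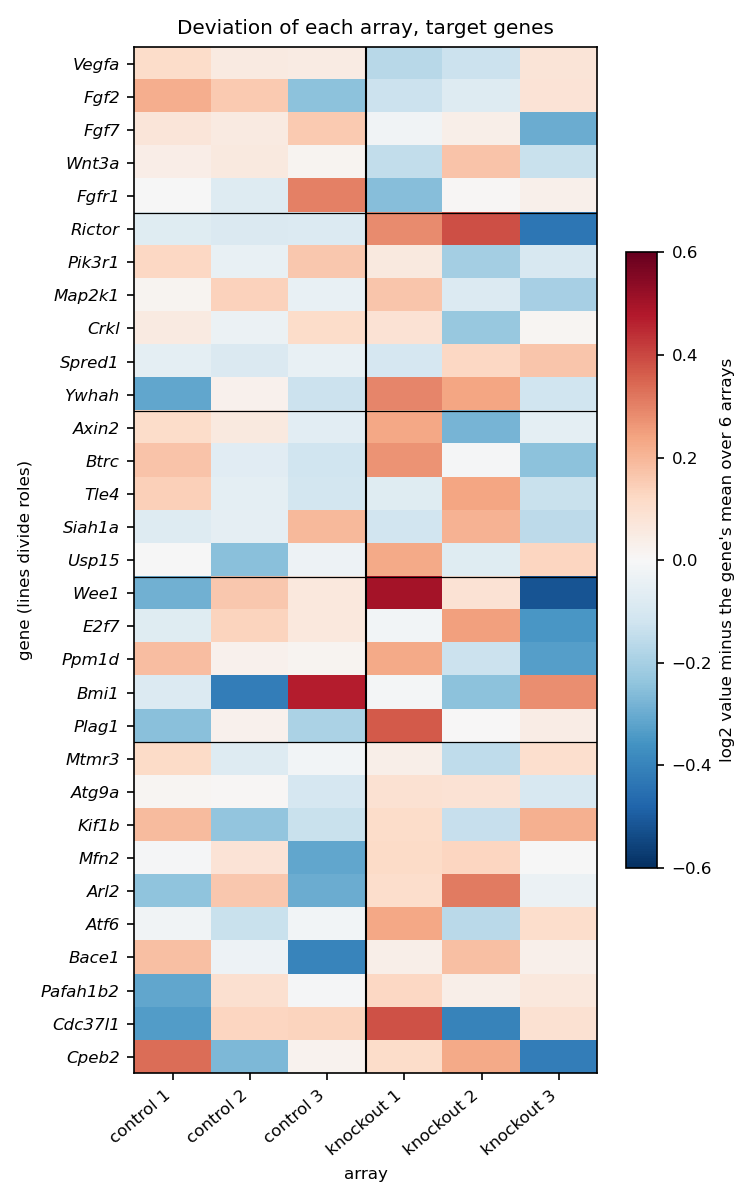
Log2 value of each array (x axis) minus the gene's mean over the 6 arrays (colour, red above and blue below), for the 31 targets (y axis, lines between role groups). Knockout array 1 holds the highest value of 12 targets and knockout array 3 the lowest of 10, in Rictor, Wee1 and Cpeb2 among others.

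Of 216 genes in 9 pathway lists without the targets, 202 were measured, and 1 rose and 0 fell past the threshold. Differences above 0 were 105 and below 0 were 97, with a median of 0.01. Of the 202, 18 (8.91%) did not overlap between genotypes, beside 8.33% of all genes. The gene that rose was Mtmr9, a catalytically inactive relative of Mtmr3, which read 8.43, 8.02 and 8.17 in knockout and 6.37, 6.27 and 6.31 in control arrays. It lay 3.71-fold higher in the knockout (limma log2 difference 1.89, SE 0.15, adjusted p = 0.00257). Mtmr9 is on chromosome 14, the chromosome of the deleted cluster, as were all 4 genes called among the 19938 (the others were Mir15a, Gfra2 and Rcbtb2), while 0 of the 31 targets are. A link between these calls and the deleted locus was not tested. Mtmr9 and Gfra2 stayed called in every alternative setting. The call of Rcbtb2 ended with the sex covariate (limma adjusted p = 0.0753) and whichever 1 array was left out (limma adjusted p between 0.137 and 0.197).

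The list for PI3K, AKT and mTOR had 13 of 20 differences above 0 (median 0.06), and that for RAS-MAPK 13 of 21 (median 0.02). In both lists 0 genes had an unadjusted p under 0.05 by limma, beside 3.47% of all genes. Pik3cg, the PI3-kinase gamma catalytic subunit, led the PI3K, AKT and mTOR list with a difference of 0.23 (SE 0.14), followed by the mTORC1 restraint Tsc1 with 0.23 (SE 0.14). In the RAS-MAPK list the kinase Braf had a difference of 0.33 (SE 0.17) and Map2k2, the MEK2 partner of Map2k1, one of -0.28 (SE 0.19). Of 19 FGF and VEGF genes 15 had a difference below 0 (median -0.05) and 7 were above background. The lymphatic growth factor Vegfc differed by 0.41 (SE 0.19) and the receptor Fgfr2, under the olfactory receptor level, by -0.21 (SE 0.14).

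Of 34 WNT genes 16 had a difference above 0 (median -0.01), led by Znrf3, a ubiquitin ligase that removes WNT receptors. Znrf3 read 6.55, 6.56 and 6.32 in knockout and 6.25, 6.07 and 5.52 in control arrays, without overlap (limma difference 0.53, SE 0.20, unadjusted p = 0.0229, adjusted p = 0.999). It was followed by the casein kinase Csnk1a1 with 0.30 (SE 0.15). Of 19 checkpoint and E2F genes 12 were above 0 (median 0.07), with the checkpoint kinase Atr at 0.29 (SE 0.14) and E2f2 at -0.39 (SE 0.20).

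Of 13 genes of Polycomb repressive complex 1, 7 had a difference above 0 (median 0.00). Pcgf5, a paralog of Bmi1, differed by 0.33 (SE 0.13, limma unadjusted p = 0.036, adjusted p = 0.999), without overlap between genotypes, and Pcgf3 by -0.45 (SE 0.22). Among 34 autophagy and myotubularin genes 17 were above 0 (median 0.01). The next after Mtmr9 was Atg5, part of the conjugation system of autophagy, at 0.49 (SE 0.22, limma unadjusted p = 0.0493). Of 19 genes of the unfolded protein response 10 were above 0 (median 0.01), with Dnajb9 at 0.40 (SE 0.31) and Sel1l at 0.26 (SE 0.15). Of 41 close paralogs of the targets 22 were above 0 (median 0.00), and the smallest unadjusted p-values were those of Atg9b at -0.37 (SE 0.19) and Ywhab at -0.24 (SE 0.13), the opposite sign to Atg9a and Ywhah.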

How the data were processed

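The deposited data are log2 values of 35556 probe sets on 6 arrays, between 0.74 and 13.6. Per the submitters' processing notes RMA and Partek 6.6 were used, with no step assigned to either. RMA subtracts background, quantile-normalizes and summarises probes, which compresses differences of dim probe sets. No genome build is named in the labels. Precision was limited by the number of arrays.

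In the platform annotation 21789 probe sets had 1 gene symbol, 1621 several and 12146 were not listed. The brightest probe set of a symbol stood for the gene (19938 genes, 999 with more than 1). Genotypes were compared with limma 3.58.1 in R 4.3.3, two-sided, with genotype as the only term and no filter on dim genes. The fit was run on simulated data with independent noise, which lacks effects shared by the genes of an array, and no result here rests on it. The members, role groups and pathway lists were chosen with earlier results of these data known. Named genes are all 31 members, the 2 genes with the smallest p of each pathway list, the precursors and the genes called among all genes. Named outside these rules are single cell type markers picked from their lists, Xist, and Siah1b by name only. Alternatives changed the scaling, filter, block, variance prior, array weights, probe set, a sex covariate and 1 array at a time. Microarray intensities of single probes were not used here.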

Additional observations from a re-analysis of the deposited data

How the results depend on the processing

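Over the 15 alternatives run, 0 targets passed the threshold, and the smallest adjusted p was 0.991 (limma). The median of the targets stayed between -0.02 and 0.07 and the sign of the difference was the same in every setting for 18 of 31. The 13 others had differences of at most 0.09 in size with all arrays. Targets with a limma unadjusted p under 0.05 were between 0 and 2 when 1 array was left out. They were 2 of 31 (Rictor and Ywhah) without knockout replicate 3, beside 4.75% of all genes. Without control replicate 2 the only one was Arl2, 1 of 31, beside 4.02% of all genes. Genes called among all 19938 were 4 with all arrays, between 2 and 3 when 1 array was left out, and 2 with the covariate for sex-linked transcripts. Replicate numbers occur in both genotypes. With the replicate block 3 genes and 0 targets were called, and the targets' median was 0.01. Deviations of same-numbered arrays correlated with r of 0.05, 0.15 and 0.14 across genes, each array best with its own number, a hint from the data only; the labels do not pair them. Centring on array medians moved the median of all genes from -0.01 to 0.03 and that of the targets to 0.05 (18 above 0), and a second quantile normalization gave 14 above 0. Among genes at or above the median brightness 26 targets were left. Dim probe sets, here Fgf2, Fgf7, Wnt3a and Plag1, limit what can be seen.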
